A study of Mus musculus with 6 samples.

Results

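The BCL2 family decides whether a stressed cell opens its outer mitochondrial membrane and dies. Described here are 10 of its genes, chosen by name from the 54532 genes of the count table: the pro-survival genes Bcl2, Bcl2l1 and Mcl1, the pore-forming effector gene Bak1, and the BH3-only genes Bad, Bcl2l11, Bid, Bmf, Bbc3 and Pmaip1. RNA came from Glu-tag cells, a mouse enteroendocrine line that the study uses for small intestinal neuroendocrine tumours. One group (sh-control, genotype WT) carried a control hairpin and the other (sh-IRS2, genotype IRS2 Knockdown) a stable hairpin against Irs2, the adaptor that couples insulin and IGF receptors to phosphoinositide 3-kinase. Each group held 3 libraries, numbered 1 to 3 in their titles, and no other treatment is labelled. The labels do not say whether a line was 1 clone, nor which hairpin sequence was used.

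As background, pro-survival proteins hold the effectors BAK and BAX in check, and BH3-only proteins release that hold. BIM (from Bcl2l11), PUMA (Bbc3) and BID bind the pro-survival proteins broadly, while BAD, BMF and NOXA (Pmaip1) are more selective. Growth factor signalling through phosphoinositide 3-kinase and AKT is known to restrain FoxO transcription factors, for which Bcl2l11 and Bbc3 are textbook targets, and to keep BAD phosphorylated and bound in the cytosol. MCL1 is a short-lived protein, so its RNA level is only a part of what sets its amount.

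The sequence before the start sites of Bcl2, Bcl2l11 and Bbc3 is shown. Bcl2 and Bbc3 were chosen as members that differed between libraries below. Bcl2l11 and Bbc3 were chosen as the members in whose windows the FoxO letters were found. Bmf, which also differed between libraries, is not shown. Each line gives the 250 bases before a RefSeq start in GRCm38.p6, read 5′ to 3′ on the strand of the gene. Capitals mark matches to any of the 6 motifs searched on both strands, which were GTAAACA (FoxO), CACGTG (E-box), TGACGTCA (cAMP response element), TGATGCAA (ATF4 and C/EBP composite), GGGCGG (GC box) and CCAAT. The windows lie at chr1:106714291-106714540 (minus strand) for Bcl2, chr2:128125788-128126037 (plus strand) for Bcl2l11 and chr7:16310011-16310260 (plus strand) for Bbc3, and none of the 3 overlaps an exon in GENCODE M21.
Bcl2: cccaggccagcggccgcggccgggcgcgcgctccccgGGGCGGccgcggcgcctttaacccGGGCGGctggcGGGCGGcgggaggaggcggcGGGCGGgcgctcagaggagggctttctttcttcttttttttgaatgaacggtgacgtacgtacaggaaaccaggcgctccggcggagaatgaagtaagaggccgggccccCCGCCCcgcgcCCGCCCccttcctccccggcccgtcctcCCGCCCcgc
Bcl2l11: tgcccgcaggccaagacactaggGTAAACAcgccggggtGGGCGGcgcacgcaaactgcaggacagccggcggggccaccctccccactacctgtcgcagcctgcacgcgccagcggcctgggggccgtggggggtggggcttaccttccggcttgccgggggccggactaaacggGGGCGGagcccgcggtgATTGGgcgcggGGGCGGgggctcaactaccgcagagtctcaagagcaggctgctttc
Bbc3: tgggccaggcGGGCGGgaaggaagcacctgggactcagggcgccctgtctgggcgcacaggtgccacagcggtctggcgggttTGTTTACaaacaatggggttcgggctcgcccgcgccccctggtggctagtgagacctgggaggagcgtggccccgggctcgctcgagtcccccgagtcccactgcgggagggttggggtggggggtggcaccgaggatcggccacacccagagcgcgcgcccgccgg

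The FoxO letters GTAAACA lay 227 to 221 bases before the first start of Bcl2l11. In Bbc3 their reverse complement lay 167 to 161 bases before the start at base 16310261, the second of 3 starts listed for that gene. This Bbc3 window lies inside the listed gene, which begins at base 16308393, and past the first start at base 16309583. The Bcl2 window held 7 GC boxes and none of the other 5 motifs, in a sequence of 74.8% G and C. The RefSeq table held 17 windows for 9 members, Pmaip1 being not used here. The FoxO letters occurred in 2 of these 17 windows, against 3.17% of all 32851 windows in the table. The GC box occurred in 9 of 17 windows (32.7% of all), CCAAT in 6 (33.8%), the E-box in 1 (6.02%), and the cAMP response element (1.55%) and the ATF4 composite (0.791%) in none. A match of letters is a description of the sequence and not a measured binding site.

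Several facts of the whole series bear on what follows. Library totals ran from 14991019 to 19790073 counts. Irs2 RNA was not lower under its own hairpin: it averaged 29.5 ± 6.05 CPM (counts scaled to the total of the library; mean ± SD, n = 3) with sh-control and 32.9 ± 5.22 CPM (n = 3) with sh-IRS2, a log2 fold change of 0.17 (SE 0.16) with an edgeR adjusted p of 1.00. The groups are therefore named by their labels, and every direction is that of the sh-IRS2-labelled libraries against sh-control. Markers of the labelled cell type were nearly absent: of 12 enteroendocrine genes 5 (Gcg, Chga, Pcsk1, Neurod1 and Pyy) had 0 counts in all 6 libraries, and the list summed to 21.1 to 28.3 CPM, nearly all of it Pax6. Of 8 fibroblast markers Thy1 had 0 counts, and Col1a1 and Dcn had 20 and 25 counts over the series. With sh-control Col1a2 and Lum averaged 4.06 and 2.49 CPM, and Pdgfra and Pdgfrb 52.6 and 44.7 CPM. The list summed to 629 to 967 CPM with sh-control and 850 to 989 CPM with sh-IRS2, mostly Col3a1. Immune, endothelial, and enterocyte and goblet markers summed to at most 5.67, 2.60 and 0.487 CPM, with defining genes such as Cd3e, Alpi and Fabp2 at 0. The 2 libraries numbered 2 stood apart from the other 4. Their deviations from their group means correlated at 0.645 across genes, which are not independent replicates. Results are given below both between hairpins and between numbers.

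Mcl1 RNA was the most abundant of the 10 members. On the scale that allows comparison between genes, FPKM (counts scaled for library size and for listed gene length, as deposited), Mcl1 averaged 89.6 ± 4.41 (SD, n = 6), above 96.3% of the genes tested. Bak1, whose product forms the pore, followed at 42.8 ± 2.38 FPKM. Bad averaged 14.9 ± 2.79 FPKM and Bcl2l1, which encodes BCL-XL, 13.4 ± 0.34 FPKM with sh-control and 14.6 ± 0.989 FPKM with sh-IRS2 (n = 3 each). Their ranges over libraries overlapped, so their order is not settled. Bcl2l11 averaged 7.10 ± 0.491 FPKM, Bid 5.45 ± 0.369 FPKM and Bcl2 itself 5.43 ± 0.955 FPKM. Bcl2 overlapped with both of the others in range, while Bcl2l11 lay above Bid in every library. Bmf averaged 3.26 ± 0.665 FPKM and Bbc3 2.71 ± 0.642 FPKM, also with overlapping ranges. In mm10 Mcl1 lies at chr3:95658788-95663176 (plus strand), Bak1 at chr17:27019810-27029009 (minus), Bcl2l1 at chr2:152780668-152831728 (minus) and Bcl2 at chr1:106538178-106714274 (minus). Of the BH3-only genes, Bcl2l11 lies at chr2:128126038-128162547 (plus), Bmf at chr2:118528757-118549687 (minus), Bbc3 at chr7:16308393-16318205 (plus), Bid at chr6:120891930-120916853 (minus) and Bad at chr19:6941861-6951898 (plus). FPKM divides by the whole listed length, 9157 bases for Bcl2 and 8029 bases for Bcl2l11 against 2124 bases for Bbc3, and would understate a gene whose cells use a shorter transcript.

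Pmaip1, which encodes the BH3-only protein NOXA, had 0 counts in all 6 libraries. A total of 0 allows a level of up to 0.0295 CPM, taken as 3 counts over the 101561149 counts of the series, a limit that covers counting error only. Pmaip1 thus did not pass the filter on low counts, and the tests below concern 9 of the 10 members. The 4 genes of the related pro-survival group Bcl2a1 (Bcl2a1a to Bcl2a1d) likewise had 0 counts, and the pro-survival gene Bcl2l10 and the BH3-only genes Bik and Hrk had 1, 5 and 2 counts over the series.

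**Figure D1:**
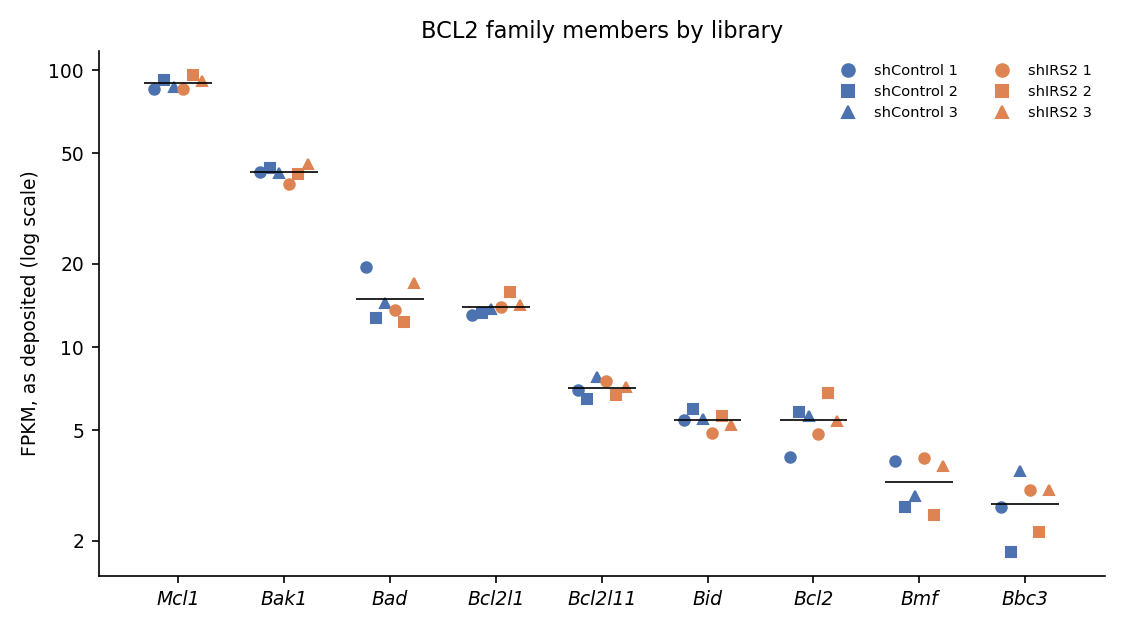
FPKM as deposited (log scale) of the 9 detected members, ordered by mean, with 1 point per library, colour for the hairpin label, shape for the replicate number and a line at the mean of the 6 libraries. Mcl1 lies between 85.4 and 96.4 FPKM and Bbc3 between 1.82 and 3.56 FPKM. Squares, the libraries numbered 2, lie highest for Bcl2, Mcl1 and Bid and lowest for Bmf, Bbc3, Bad and Bcl2l11.

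Summed over the 10 members, the 3 pro-survival genes held 58.8% of the FPKM (range over libraries 55.7% to 62.5%), Bak1 23.1% (at most 23.9%) and the BH3-only genes 18.1% (15.4% to 20.9%). Mcl1 alone held 48.4%. Bad was the most abundant BH3-only RNA, at 8.06% of the sum. The ratio of summed BH3-only to summed pro-survival FPKM was 0.375, 0.266 and 0.322 in sh-control libraries 1, 2 and 3. It was 0.316, 0.246 and 0.327 in sh-IRS2-labelled libraries 1, 2 and 3. The hairpin groups overlapped in this ratio, and its lowest values were those of the libraries numbered 2. These are sums of RNA levels and say nothing of protein.

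**Figure D2:**
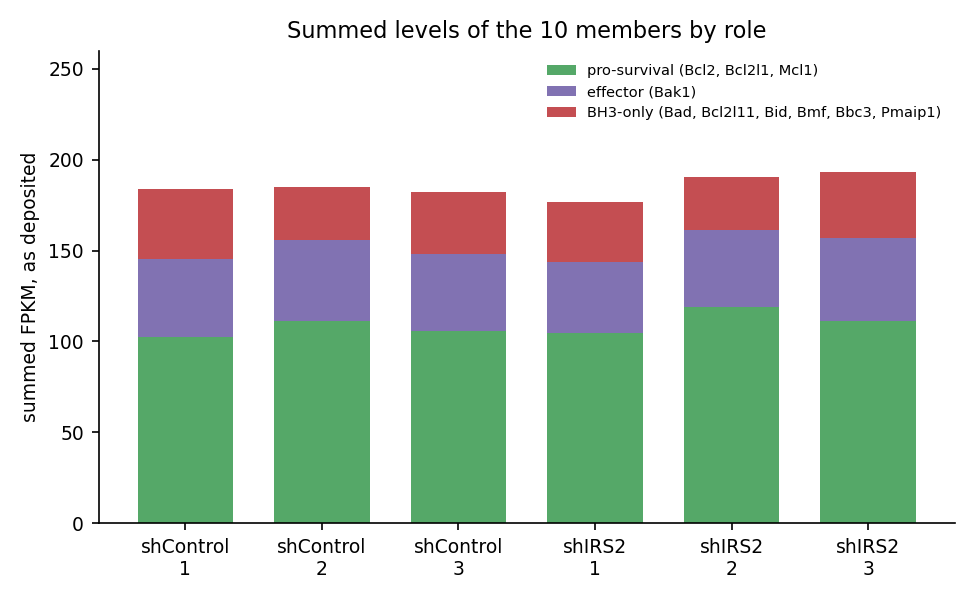
Summed FPKM as deposited of the pro-survival genes, Bak1 and the BH3-only genes in each of the 6 libraries, as stacked bars from 0. The pro-survival sum runs from 102.4 to 118.9 FPKM and is highest in each hairpin group in the library numbered 2, where the BH3-only sum is lowest, at 29.6 and 29.2 FPKM.

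The first comparison asked whether these survival and death genes differ between the hairpin labels. None of the 9 tested members was called at an edgeR adjusted p of 0.05, where 0% of the 13472 genes tested were called, and all 9 had an adjusted p of 1.00. At an unadjusted p under 0.05 the count was 0 members and 262 genes. The log2 fold change was positive for 6 members and negative for 3, with a median of 0.05 beside 0.00 over all genes tested. The 95% interval lay within a 1.5-fold change either way for 8 of the 9 members, and Bbc3 was the exception. With the replicate number as a block 0 members were called, against 0.00742% of the genes tested, with all 9 intervals then within 1.5-fold. At an unadjusted p under 0.05 the blocked fit held 0 members and 1234 genes. The block made the SE smaller for every tested member. For Bcl2 it was 0.08 with the block and 0.17 without, and for Bcl2l1 0.07 and 0.09.

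Among the pro-survival genes, Bcl2l1 was the member whose hairpin groups did not overlap. It stood at 61.2, 60.5 and 63.5 CPM in sh-control libraries 1, 2 and 3 and at 64.3, 71.2 and 65.4 CPM in the sh-IRS2-labelled ones. All 3 values under the sh-IRS2 label were higher, the library numbered 2 most. This came to 0.13 on the log2 scale (SE 0.09, interval -0.07 to 0.33), which did not pass the test. It was higher in 3 of 3 numbered pairs, by 0.10, 0.24 and 0.05. Of all genes tested 6.35% had groups that did not overlap on TMM-scaled CPM, in either direction, and here it was 1 of 9. On the plain CPM printed here the groups of Bid did not overlap either. Its lowest sh-control value was 19.71 CPM and its highest sh-IRS2-labelled value 19.66 CPM.

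Mcl1 stood at 298, 313 and 299 CPM with sh-control and at 295, 325 and 314 CPM with sh-IRS2, overlapping throughout. Its log2 fold change was 0.05 (SE 0.08), and the interval of -0.13 to 0.23 was among the narrowest of the tested members. Bcl2 stood at 37.5, 53.0 and 52.2 CPM with sh-control and at 44.7, 61.7 and 49.8 CPM with sh-IRS2. The lowest value of each group was the library numbered 1, and the highest the library numbered 2. The log2 fold change of 0.14 (SE 0.17) did not pass, with pairs at 0.28, 0.23 and -0.07.

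Bak1, the effector among the members, stood at 105.9, 105.9 and 102.8 CPM with sh-control and at 94.2, 100.3 and 111 CPM with sh-IRS2. Its lowest and its highest value both carried the sh-IRS2 label. The hairpin difference was -0.03 in log2 (SE 0.09), with an interval of -0.23 to 0.17. Bax, the other main effector gene, averaged 52.5 ± 5.51 FPKM (SD, n = 6), with a hairpin difference of -0.01 on the log2 scale (SE 0.12). Bak1 overlaps Ggnbp1 on the opposite strand, which held 228 counts against 10493.

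Of the BH3-only genes, Bcl2l11 was the steadiest between hairpins, at 57.3, 51.6 and 63.1 CPM with sh-control and 60.7, 53.0 and 57.9 CPM with sh-IRS2, a log2 fold change of 0.01 (SE 0.10). Bid, cut by caspase 8 to its active form, had 19.8, 21.1 and 19.7 CPM against 17.5, 19.7 and 18.7 CPM, a log2 fold change of -0.11 (SE 0.12). It was lower in all 3 numbered pairs, by values of -0.15, -0.09 and -0.07, and did not pass. Its locus overlaps Bcl2l13 on the opposite strand, which held 6957 counts against 1976 for Bid, and the strand setting of the counting is not given in the sources used here, so reads of the 2 genes may be mixed.

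Bad had 39.9, 25.3 and 29.2 CPM with sh-control and 27.6, 24.3 and 34.5 CPM with sh-IRS2. The sh-control library numbered 1 was the highest of the 6, and without it the log2 fold change of -0.11 (SE 0.18) turned to 0.08. Bad overlaps Gpr137 on the opposite strand, which held 1182 counts against 3022. Bmf, a BH3-only gene whose product binds dynein light chains, had 20.8, 13.7 and 15.3 CPM against 21.0, 12.8 and 19.6 CPM, a log2 fold change of 0.12 (SE 0.21). Bbc3 had 5.74, 3.84 and 7.62 CPM against 6.54, 4.50 and 6.52 CPM, and its log2 fold change of 0.05 had the widest interval, -0.53 to 0.63. The low counts of Bbc3, 74 to 135 a library, give a counting error of 10.1%, below its spread over the 6 libraries of 23.7%.

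**Figure D3:**
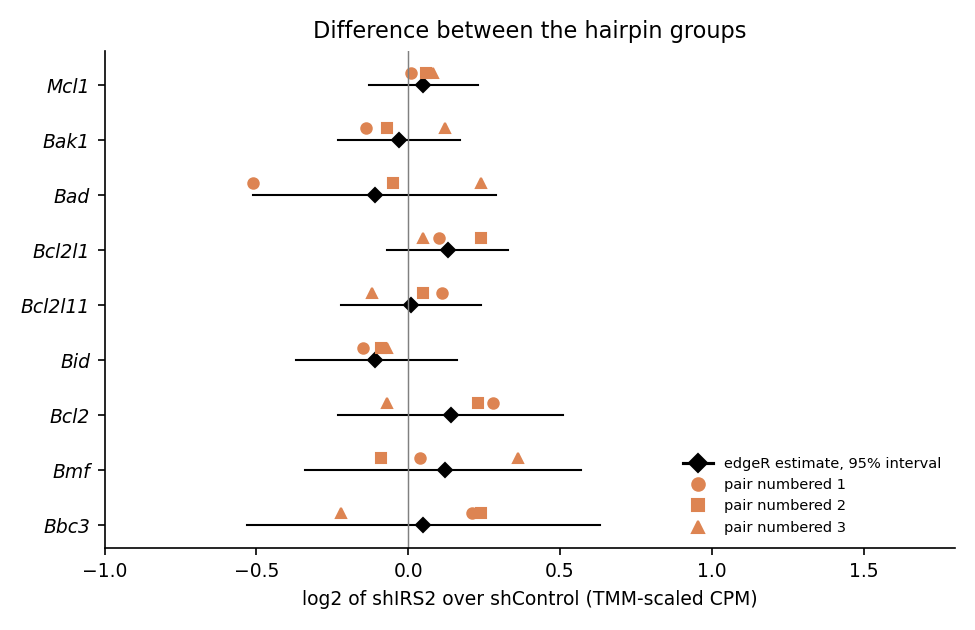
Log2 of the sh-IRS2-labelled over the sh-control libraries for the 9 tested members, with edgeR's estimate and 95% interval (black) and the ratio in each numbered pair (orange, from TMM-scaled CPM). Every interval includes 0; the pairs of Bad range from -0.51 to 0.24.

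The second comparison follows the replicate numbers, each of which holds 1 library of either hairpin. In a fit with the hairpin as a term, edgeR's test of any difference between the 3 numbers called 3 of the 9 members, Bcl2, Bmf and Bbc3. It called 2638 of 13472 genes, 19.6%, so a call by number is common in this series. On TMM-scaled CPM (adjusted for library composition), both libraries numbered 2 lay above the other 4 for Bcl2, Mcl1 and Bid, and below them for Bcl2l11, Bbc3, Bad and Bmf, which is 7 of 9 members against 40.2% of all genes tested. On the plain CPM printed here Mcl1 and Bid overlapped: Mcl1 had 313 CPM in sh-control library 2 and 314 CPM in sh-IRS2-labelled library 3, and Bid 19.7 CPM in sh-IRS2-labelled library 2 and 19.8 CPM in sh-control library 1. That the contrast below sets number 2 against numbers 1 and 3 was decided with earlier results of these data known.

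Bcl2 was higher in the libraries numbered 2. They held 53.0 and 61.7 CPM, and the other 4 held between 37.5 and 52.2 CPM. The log2 difference from numbers 1 and 3 was 0.35 (SE 0.08, 95% interval 0.17 to 0.53). It was 0.29 within sh-control and 0.42 within sh-IRS2. Numbers 1 and 3 also differed, with number 3 higher than number 1 by 0.32. Number 2 was higher than number 1 by 0.51 and than number 3 by 0.19. The adjusted p of edgeR's number test, which covers any difference between the 3 numbers, was 0.00593. Without the sh-IRS2-labelled library numbered 2 the adjusted p was 0.0575. The other pro-survival genes moved less and were not called: Mcl1 had a log2 difference of 0.11 (SE 0.06, 95% interval -0.01 to 0.23) and Bcl2l1 of 0.08 (SE 0.07, 95% interval -0.08 to 0.23).

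Bmf was lower in the libraries numbered 2, at 13.7 and 12.8 CPM against 15.3 to 21.0 CPM in the other 4. Numbers 1 and 3 also differed, with number 3 minus number 1 at -0.26 on the log2 scale. The adjusted p of edgeR's number test, which covers any difference between the 3 numbers, was 0.0173. The log2 difference of number 2 from numbers 1 and 3 was -0.48 (SE 0.12, 95% interval -0.74 to -0.22). Within sh-control it was -0.34 and within sh-IRS2 -0.63. Leaving out the sh-IRS2-labelled library numbered 2 gave -0.35 and an adjusted p of 0.25.

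Bbc3 was also lower in the libraries numbered 2, at 3.84 and 4.50 CPM against 5.74 to 7.62 CPM. The log2 difference was -0.64 (SE 0.18, 95% interval -1.02 to -0.25), the largest in size of the 9, at an adjusted p of 0.0425 from edgeR. It was -0.75 within sh-control and -0.51 within sh-IRS2. The call was lost without sh-control library 2 (adjusted p 0.48), without sh-control library 3 (0.118) and without sh-IRS2-labelled library 2 (0.148), while the difference stayed between -0.51 and -0.76.

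Bad had the same sign, at a log2 difference of -0.37 (SE 0.13, 95% interval -0.64 to -0.10), and was not called (edgeR, adjusted p 0.118). It was called without sh-control library 3 (adjusted p 0.000441), without sh-IRS2-labelled library 1 (0.00227) or library 3 (0.00907), and without a filter on low counts (0.00887). It was not called without sh-control library 1, where the difference was -0.20 (adjusted p 0.0547), nor without sh-control library 2 (0.538) or sh-IRS2-labelled library 2 (0.292). Bcl2l11 differed by -0.16 (SE 0.07), with an adjusted p of 0.261. Bid, at 0.14 (SE 0.10), and Bak1, at 0.03 (SE 0.07, 95% interval -0.13 to 0.18), were not called. The interval of this contrast reached past 1.5-fold for Bbc3, Bmf and Bad and lay within it for the other 6 members.

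**Figure D4:**
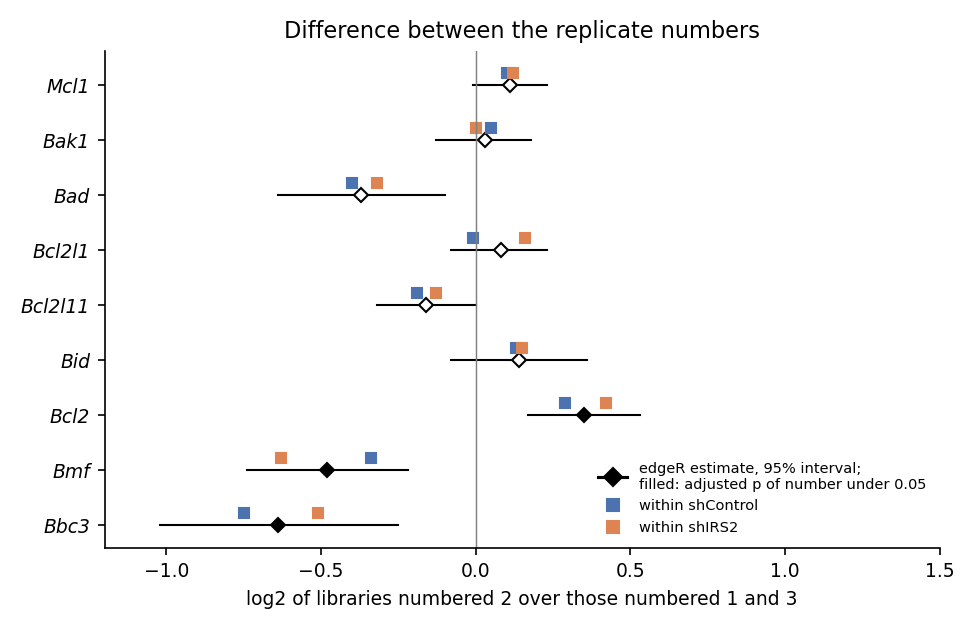
Log2 of the libraries numbered 2 over those numbered 1 and 3 for the 9 tested members, with edgeR's estimate and 95% interval (black, filled where the test of number passed) and the same difference within each hairpin label (squares). Bcl2 lies to the right at 0.35, and Bmf and Bbc3 to the left at -0.48 and -0.64, with both hairpin labels on the same side.

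Other properties of the libraries are given here by number, and not all of them set number 2 apart. Transcripts of the mitochondrial genome took 1.63% and 1.71% of counts in the libraries numbered 2, against 1.25% to 1.61% in the other 4. The fibroblast markers summed to 629 and 850 CPM there, against 654 to 989 CPM elsewhere, so that they overlapped. The enteroendocrine markers summed to 21.1 and 22.4 CPM in the libraries numbered 2, against 24.2 to 28.3 CPM in the others. Irs2 itself was lower there, by -0.38 on the log2 scale (SE 0.10, edgeR adjusted p 0.0159). Totals of 19790073 and 16428788 counts in the libraries numbered 2 spanned much of the series' range. The part of these properties in the differences of Bcl2, Bmf and Bbc3 was not tested. No label says what a number stands for.

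The rest of the pathway was read from lists chosen with earlier results of these data known. Between the hairpins edgeR called 0 genes of the remaining BCL2 family, the apoptosome and caspases, the proteins that handle members and the regulators of their transcription, with 60 genes tested in all. Genes above and below 0 numbered 7 and 2, 14 and 5, 13 and 7, and 7 and 5 for these lists in turn, with medians of 0.11, 0.05, 0.04 and 0.04 beside 0.00 over all genes tested. The smallest unadjusted p-values belonged to Bcl2l13, a mitophagy receptor gene, with -0.15 on the log2 scale (SE 0.09), to Dynll2, a dynein light chain that binds BMF, at -0.16 (SE 0.10), and to Dynll1, at 0.12 (SE 0.08). Cebpb, a stress-responsive transcription factor, had 0.33 (SE 0.22).

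Between the numbers, 2 of 9 tested genes of the remaining family (22.2%) were called, both lower in the libraries numbered 2. The shares in this list and in those of the apoptosome and caspases and of handling proteins are near the 19.6% of all genes tested and are not results about the lists. Bnip3, a mitophagy receptor with a BH3-like region, held 22.5 and 25.9 FPKM there, against 34.9 to 47.3 FPKM elsewhere, a log2 difference of -0.74 (SE 0.07) with an edgeR adjusted p of 3.67e-05. Its relative Bnip3l differed by -0.30 (SE 0.07, adjusted p 0.0142). Bax, at -0.23 (SE 0.08, adjusted p 0.153), and the pro-survival gene Bcl2l2, at -0.10 (SE 0.11), were not called.

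Downstream of the pore, 4 of 19 genes (21.1%) were called, 3 higher and 1 lower in the libraries numbered 2. Cycs, which encodes cytochrome c, was higher by 0.33 (SE 0.07, edgeR adjusted p 0.0113) and Apaf1, the scaffold that cytochrome c assembles, was lower, at -0.24 (SE 0.07, adjusted p 0.0319). Dffb, the nuclease that cuts DNA in apoptosis, and Parp1, a DNA repair enzyme cut by caspases, were higher by 0.49 (SE 0.13) and 0.19 (SE 0.06). Casp9, the initiator caspase on the scaffold, had a difference of -0.36 (SE 0.12) with an adjusted p of 0.0856.

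Of 20 proteins that bind, modify or turn over members, 3 (15.0%) were called. Ywhae and Ywhaz, adaptors of the family that holds phosphorylated BAD in the cytosol, were higher in the libraries numbered 2 by 0.25 (SE 0.06, edgeR adjusted p 0.0288) and 0.22 (SE 0.06, adjusted p 0.0344). Tmbim6, which encodes BAX inhibitor 1, was lower, at -0.29 (SE 0.06, adjusted p 0.0134). Fbxw7, a ubiquitin ligase subunit that targets MCL1, stood at 0.31 (SE 0.09), just short of the threshold at an adjusted p of 0.0504.

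In the list of regulators of the members' transcription 10 of 12 tested genes were called by number (83.3%, against 19.6% of all genes tested). This list was chosen with earlier results of these data known, so its share is not a result about the list. Of the called genes, 7 were lower and 3 higher in the libraries numbered 2. Trib3, a target and brake of the stress factors ATF4 and CHOP, held 10.6 and 10.3 FPKM there against 47.5 to 62.7 FPKM, a log2 difference of -2.38 (SE 0.09) with an edgeR adjusted p of 1.84e-08. Ddit3, which encodes CHOP, fell by 1.00 on the log2 scale (SE 0.11, adjusted p 0.000108). Cebpb had -0.59 (SE 0.10) and Myc 0.45 (SE 0.07). Foxo3 and Foxo4, named here after their values were seen because of the letters in the Bcl2l11 and Bbc3 windows above, had -0.33 (SE 0.07, adjusted p 0.0119) and -0.52 (SE 0.10, adjusted p 0.00595). Foxo1, the other FoxO gene on the list, had -0.04 (SE 0.21, adjusted p 0.986) and was not called. RNA of a FoxO gene is not its activity, which is set largely by where the protein lies in the cell. Of the members with the FoxO letters, Bbc3 was called by number and Bcl2l11 was not. Bmf was called, and its windows did not hold the letters. Trp53, a known activator of Bbc3, was higher in the libraries numbered 2 by 0.35 (SE 0.07). The part of any gene on this list in the differences of the members was not tested.

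**Figure D5:**
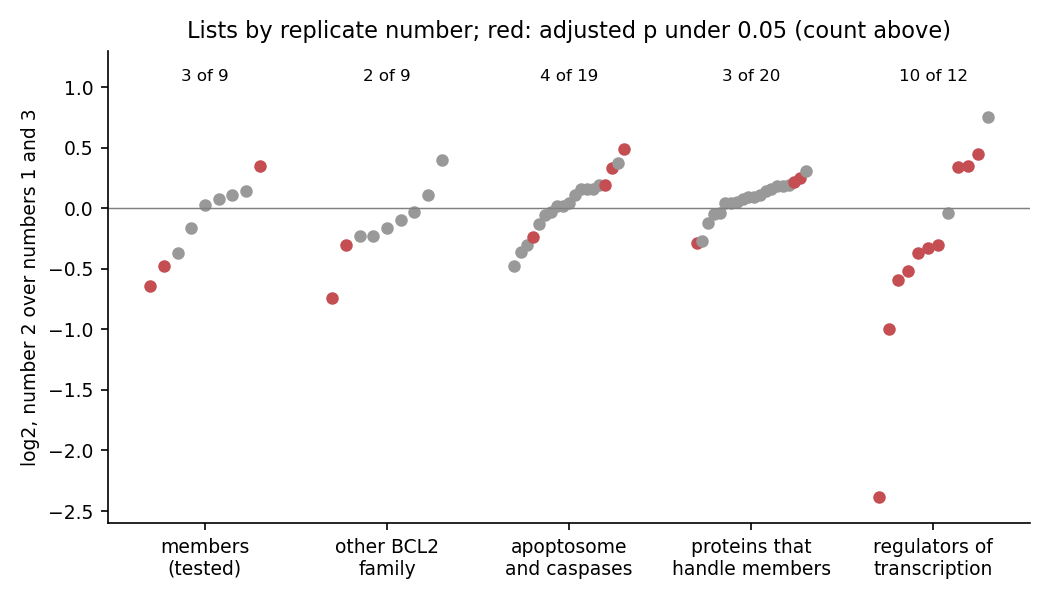
Log2 of the libraries numbered 2 over those numbered 1 and 3 for each tested gene (points, sorted within a list) of the members and the 4 related lists, red where edgeR's test of number passed. The counts above each list read 3 of 9, 2 of 9, 4 of 19, 3 of 20 and 10 of 12, and the lowest point is Trib3 at -2.38. The lists were chosen with earlier results of these data known.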

How the data were processed

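RNA-seq of 6 libraries of Glu-tag cells was analysed. Per the labels' protocols, libraries were strand-specific and read as paired ends. Reads were placed on mm10 according to the submitters' processing notes. Aligner, counter and strand setting: not given in the sources used here. The authors deposited raw read counts per gene and a table of FPKM, whose values equal the count divided by gene length and by a single total per library, 0.985 to 1.02 times the column sum. Columns were matched to samples by name alone. Coordinates are those of the tables; RefSeq windows are in GRCm38.p6, the same assembly.

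Counts were fitted in R 4.3.3 with edgeR 4.0.16 (filterByExpr by group, TMM, robust quasi-likelihood), which kept 13472 of 54532 genes. P-values of the hairpin fit were two-sided, and those of the number fit came from an F test with 2 degrees of freedom. Both were Benjamini-Hochberg adjusted over all genes tested, with a threshold of 0.05. The hairpin fit had the group alone; the number fit had number and hairpin, tested over the 3 numbers. DESeq2 1.42.0 (no independent filtering) and limma 3.58.1 on log2(FPKM + 1) were alternatives. The edgeR script was tested on simulated data. Deviations from group means correlated at 0.201, 0.645 and 0.315 for libraries numbered 1, 2 and 3, all above 0.1, and by that rule the numbers were taken to pair the libraries. The matching sets number 2 apart but not 1 from 3: sh-control 1 with sh-IRS2 3 gave 0.221 and sh-control 3 with sh-IRS2 1 gave 0.232. The pairing rests on these values and on no label. The series' design names biological triplicates, every sample's description reads rep1, and no label names separate cultures, so the p-values speak for the spread of these 6 libraries, some of it possibly technical. No pair of libraries agreed within sampling noise. All 10 members were to be named, with up to 4 genes per list by smallest p in each fit, Bax, Bcl2l2, Apaf1, Casp9 and Irs2, except that some results are not reported here; genes outside that rule (Foxo3, Foxo4, Trp53, Bik, Hrk, Bcl2l10, markers) were chosen after their values were seen. The members and lists were chosen with earlier results of these data known.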

Additional observations from a re-analysis of the deposited data

How the results depend on the processing

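Between the hairpins, 0 members were called under every alternative run, among them the replicate block. Over all genes, 0 were called by edgeR, with 262 at an unadjusted p under 0.05. With the replicate block 1 was called, with 1234 at an unadjusted p under 0.05. Calls numbered 6 without a filter on low counts, 2 by DESeq2 and 4 by DESeq2 with the replicate block, the last chosen after seeing the data. With 1 library left out at a time the hairpin difference crossed 0 for Bcl2 (-0.01 to 0.24), Bcl2l11 (-0.05 to 0.08), Bbc3 (-0.17 to 0.31), Bad (-0.26 to 0.08), Bak1 (-0.09 to 0.03) and Bmf (-0.02 to 0.30). With both libraries numbered 2 left out, also chosen after seeing the data, Bcl2l11 was at -0.01 and Bbc3 at -0.03. Between the numbers, genes called were 2638, against 1560 by DESeq2 and 803 by limma on log2(FPKM + 1), and 798 to 3774 with single libraries left out, lowest without the sh-control library numbered 2 and 973 without the sh-IRS2-labelled one; members called were 3, against 1 by DESeq2 (Bcl2), 0 by limma and 0 to 4 with single libraries left out, 0 without the sh-IRS2-labelled library numbered 2. Leaving out a library numbered 2 leaves 1 of that number, which is assumed to vary like the others; the other causes were not tested. Leaving out libraries moved the number 2 difference across 0 for Bcl2l1 (-0.01 to 0.16) and Bak1 (-0.03 to 0.08). Bbc3 was also not called without the hairpin term (adjusted p 0.0512). Depth limits Bbc3 most, and Pmaip1 to the stated upper limit.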

Other observations

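The 0 counts of Pmaip1 were set beside its neighbours on chromosome 18, a check chosen after its values were seen. Within 500 kb lie 4 other protein-coding genes, of which 2 had counts. Lman1, a cargo receptor of the secretory pathway whose end lies 436 kb before Pmaip1, had a mean of 146 CPM over the 6 libraries. Ccbe1, a secreted matrix protein gene 155.9 kb before it, had 22 counts over the series. Cplx4 and Mc4r, a complexin and a melanocortin receptor gene, had 0 counts. The coordinates listed for Pmaip1 differ from those in GENCODE M21, and the part of this in its 0 counts was not tested. Mcl1, whose protein NOXA is known to bind, was the most abundant member in the same libraries. A link between the 0 counts of Pmaip1 and the level of Mcl1 was not tested.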
